A study of Mus musculus with 6 samples.

Results

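The transcripts of 7 genes that act in class switch recombination after the deaminase AID were examined in activated mouse B cells that lack hnRNPL, an RNA-binding protein that regulates splicing. They are *Ung*, *Apex1*, *Apex2*, *Trp53bp1*, *Rif1*, *Mad2l2* and *Paxip1*, chosen by gene name as factors of uracil and abasic site processing and of DNA end protection, and they make up 7 of the 55421 genes in the deposited table. The gene of the deaminase itself was not analysed here. Splenic B cells were cultured for 24 h with IL-4 at 5 ng/ml plus LPS at 5 μg/ml before GFP+ cells were sorted, and polyA RNA of 3 samples per genotype, by the study's text from 3 mice each, was sequenced. The WT group carried CD21-cre and the hnRNPL-deficient group was hnRNPL F/F CD21-cre, so Cre, which the CD21 promoter drives mostly in mature B cells, was present in all 6 samples. By the study's methods all mice also carried the Rosa mT/mG reporter, in which cells turn GFP+ once Cre has acted, so GFP reports Cre activity at the reporter and not directly the loss of hnRNPL. The methods state a lower age limit for the mice and the use of both sexes, but the labels give neither per sample.

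Class switch recombination replaces the constant region of the immunoglobulin heavy chain and changes the antibody class, and LPS with IL-4 directs mouse B cells to IgG1 and IgE. AID deaminates cytosine to uracil in the switch regions, UNG removes the uracil, and the abasic site left behind is cut by an apurinic endonuclease, APE1 or APE2, so that nearby nicks on opposite strands form a double-strand break. The break is signalled by ATM and held by 53BP1. With RIF1, REV7 (the product of *Mad2l2*) and the other subunits of the shieldin complex, 53BP1 limits resection of the ends before they are joined. PTIP, the product of *Paxip1*, binds phosphorylated 53BP1 and also belongs to a histone methyltransferase complex.

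The targeted gene checked the labels. *Hnrnpl* had 24371, 25579.7 and 24174 normalized counts (reads divided by a size factor for each library) in WT samples against 2178, 1519 and 1297 in hnRNPL-deficient samples. The libraries held between 40395186 and 75180749 reads on genes, and between 24009 and 26283 genes were detected in each. Summed over 6 genes, B cell markers overlapped between the groups, at 274249 to 350783 normalized counts in WT samples against 266462 to 312659 in hnRNPL-deficient samples. Summed markers of T, NK and erythroid cells were low. Like the myeloid sum, they were higher in hnRNPL-deficient samples without overlap. The 6 T cell markers summed to 19.7 to 27.7 in WT and 28.3 to 38.4 in hnRNPL-deficient cells, the 3 NK cell markers to 0 to 1.53 and 2.7 to 4.11 with *Ncr1* at 0 in every sample, and the 5 erythroid markers to 17.6 to 38.3 and 55.0 to 84.8. The markers within a list did not all rise. Most of the T cell sum was *Trac* (means 16.6 in WT and 26.6 in hnRNPL-deficient samples), while *Cd3d* was lower (3.46 and 1.36). The erythroid rise lay mostly in *Hbb-bs* (6.68 and 18.7) and *Hbb-bt* (12.2 and 44.1), while *Hba-a1* and *Hba-a2* were each lower (2.63 and 1.24). The 6 myeloid markers summed to 260.0 to 331 and 1239 to 1382 with *S100a8* at 0 in every sample, and nearly all of that sum was *Adgre1*, at 236, 282 and 315 in the WT samples, against 1217, 1337 and 1369 in the hnRNPL-deficient samples. The 4 plasma cell markers overlapped in sum, at 1640 to 1838 and 1389 to 1908, most of it *Prdm1*. Among them *Jchain*, the joining chain of secreted IgM and IgA, had 117, 109 and 26.0 normalized counts in the WT samples, against 23.4, 7.07 and 13.7 in the hnRNPL-deficient samples, and was called lower (log2 fold change -2.31, limma adjusted p = 0.0509), though it did not pass with 4 of the 6 samples left out in turn. The summed level of 15 proliferation genes lay between 150687 and 200778 in WT and between 92401 and 145966 in hnRNPL-deficient cells, with no overlap, and was highest in WT replicate 1 and lowest in hnRNPL-deficient replicate 3. The part of these differences in the results that follow was not tested, and in bulk RNA fewer cells of a type and less RNA per cell cannot be told apart.

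*Ung* and *Apex1* were the members that fell, and the stretches before their annotated transcripts are shown because their products act in succession and both levels fell. Those of *Paxip1* and *Trp53bp1*, which did not pass the test, are given for comparison. Sequences are from RefSeq on GRCm38.p6, which held an entry for 5 of the 7 members (not *Apex2* and *Rif1*), are written 5′ to 3′ on the strand of the gene and stop where an annotated exon of any gene begins. *Ung* is at chr5:114130185-114130385 on the plus strand, *Apex1* at chr14:50924894-50924948 on the plus strand, *Paxip1* at chr5:27791692-27791800 on the minus strand and *Trp53bp1* at chr2:121271408-121271657 on the minus strand. Capitals mark matches, on either strand, to the E-box CACGTG, the CCAAT box and the GC box GGGCGG. A form of the E2F site, TTTNGCGC, was searched as well.
Ung: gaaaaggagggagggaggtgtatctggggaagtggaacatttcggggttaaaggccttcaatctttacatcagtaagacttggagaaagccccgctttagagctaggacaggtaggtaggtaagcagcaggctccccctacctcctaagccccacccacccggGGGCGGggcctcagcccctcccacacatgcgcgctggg
Apex1: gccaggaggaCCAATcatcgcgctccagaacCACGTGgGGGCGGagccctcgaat
Paxip1: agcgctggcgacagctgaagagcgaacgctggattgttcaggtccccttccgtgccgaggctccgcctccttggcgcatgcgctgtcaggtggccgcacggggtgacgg
Trp53bp1: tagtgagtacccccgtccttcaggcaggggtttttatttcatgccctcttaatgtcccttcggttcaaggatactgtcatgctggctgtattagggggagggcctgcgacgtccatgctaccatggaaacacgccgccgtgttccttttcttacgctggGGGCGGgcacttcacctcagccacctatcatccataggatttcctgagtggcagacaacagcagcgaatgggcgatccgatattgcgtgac

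Among the 5 members with an entry, only *Apex1* held an E-box in the 250 bases upstream of the RefSeq start, 24 bases from it, beside a CCAAT box and a GC box within 55 bases. Of all 32851 mouse promoters in the table, 6.02% held an E-box in the 250 bases upstream, 33.9% a CCAAT box and 32.7% a GC box. Over the whole 300-base window, which reaches past the start, *Apex1* held 3 E-boxes, and 29 windows (0.0883%) held 3 or more. *Ung* and *Trp53bp1* each held a single GC box in the stretch shown, and that of *Paxip1* held no match. These stretches can be shorter than the 250 bases of the shares above. Over the full 250 bases *Ung* and *Paxip1* each held 2 GC boxes and *Trp53bp1* held 1. No E2F match was found in the 250 bases upstream of these 5 members, against 1.13% of all promoters. These are matches of letters and not shown to be bound. The 55 bases shown for *Apex1* lie between its RefSeq start and *Osgep*, which is transcribed in the opposite direction. From the *Apex1* start in GENCODE, which lies further into the gene, the start of *Osgep* is 75 bases away.

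Levels were compared between genotypes with limma on log2(normalized count + 1), over the 17640 genes whose mean reached 10 normalized counts, with Benjamini-Hochberg adjustment. All 7 members were tested. A gene passed at an adjusted p under 0.1 and was called when it also changed by at least 1.5-fold, the thresholds of the study. Tests were two-sided throughout. The limma p-values weigh the difference between genotypes against the spread between the 3 samples within each group. That spread was pooled over both groups and drawn toward a trend over all tested genes. By these rules 2 of 7 members passed with lower levels in hnRNPL-deficient cells, *Ung* and *Apex1*, against 7.97% of all tested genes, and none passed with higher levels, against 10.0%. *Ung* was the 1 member called lower, against 4.08% of tested genes, and none was called higher, against 7.28%. For 3 members, *Ung*, *Apex1* and *Paxip1*, all hnRNPL-deficient values lay below all WT values, against 16.3% of tested genes. No member was higher at an unadjusted p under 0.05 by limma, and none passed as higher by edgeR or DESeq2. The median log2 fold change of the members was -0.23, that of all tested genes -0.03, and *Apex2* was the only member above 0.

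**Figure D1:**
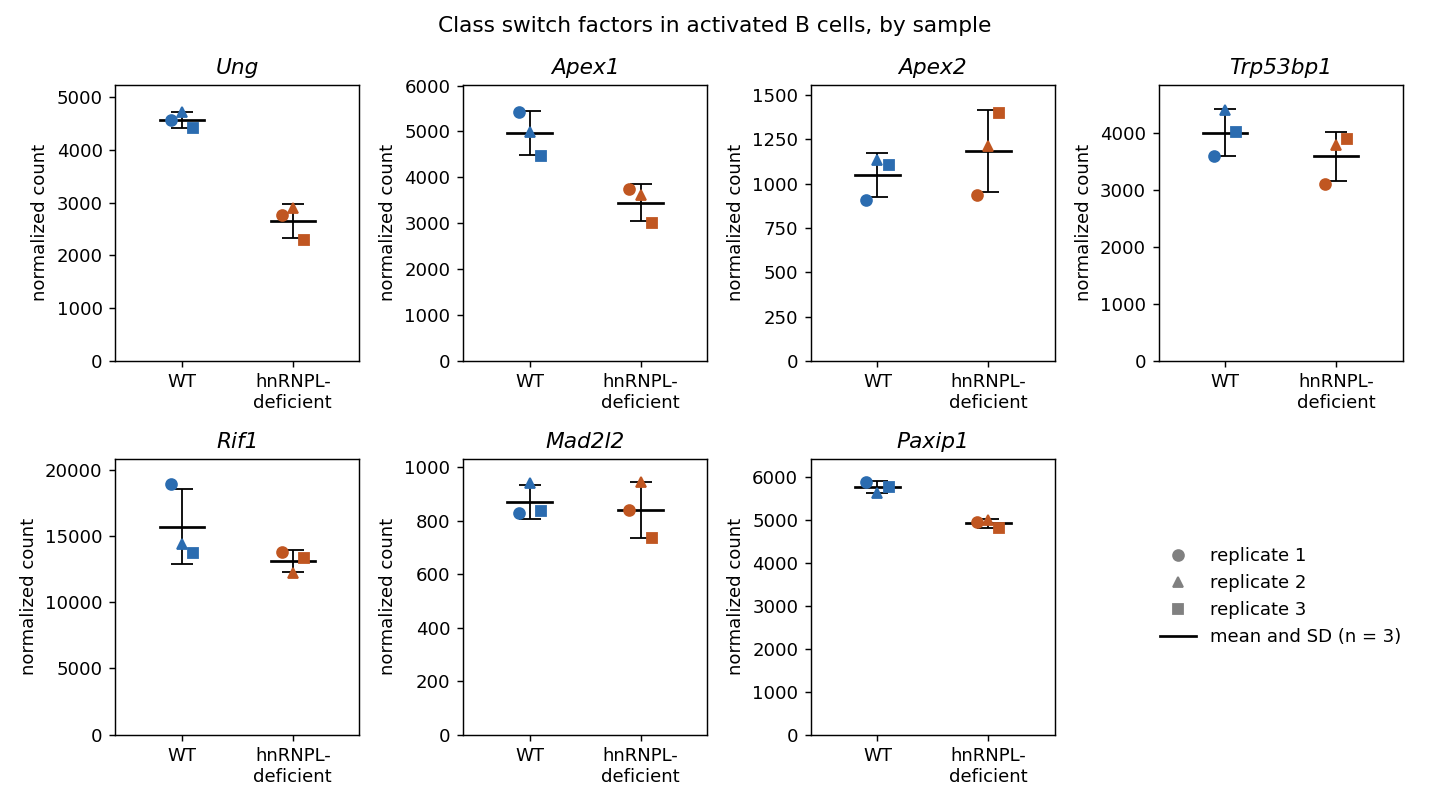
Normalized counts of the 7 members on a linear axis from 0, with a point per sample (circle, triangle and square for replicates 1, 2 and 3), a bar at the mean and SD whiskers (n = 3). The hnRNPL-deficient samples sit below every WT sample for *Ung*, *Apex1* and *Paxip1*, and the groups overlap for *Apex2*, *Trp53bp1*, *Rif1* and *Mad2l2*.

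*Ung* (ENSMUSG00000029591.14, chromosome 5, 114130386 to 114139323, plus strand) encodes the uracil-DNA glycosylase that turns the uracils made by AID into abasic sites. It had 4563, 4721 and 4407 normalized counts in the WT samples, against 2759.6, 2899 and 2285 in the hnRNPL-deficient samples. The highest hnRNPL-deficient sample was well below the lowest WT sample. The means were 4564 ± 157 and 2648 ± 322 (SD, n = 3), so that hnRNPL-deficient cells held 58.0% of the WT level. The log2 fold change was -0.79 (limma adjusted p = 0.00424, 95% interval -1.05 to -0.53), with a standard error (SE) of 0.113. *Ung* was called lower in each of the 18 fits made, with log2 fold changes between -0.86 and -0.69, including all 6 in which a single sample was left out.

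*Apex1* (ENSMUSG00000035960.14, chromosome 14, 50924968 to 50927139, plus strand) encodes APE1, the main endonuclease for abasic sites. Its WT samples held 5434, 4988 and 4471 normalized counts and its hnRNPL-deficient samples 3738, 3619.6 and 2996. The groups did not overlap, and hnRNPL-deficient cells held 69.5% of the WT level. The log2 fold change was -0.53 (limma adjusted p = 0.0286, SE 0.122, 95% interval -0.80 to -0.25), a fall that passed the test but stayed under 1.5-fold. It passed with each sample left out in turn, at -0.60 to -0.43, and reached 1.5-fold without WT replicate 3 (-0.60, adjusted p = 0.0562) or hnRNPL-deficient replicate 1 (-0.59, adjusted p = 0.0524). Its divergent neighbour *Osgep*, a tRNA modification enzyme singled out after its values were seen, had 1555 ± 49.8 normalized counts in WT samples and 1321 ± 106 in hnRNPL-deficient samples, without overlap (adjusted p = 0.199 from limma).

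*Apex2* (ENSMUSG00000025269.16, chromosome X, 150519519 to 150589868, minus strand) encodes APE2, the other apurinic endonuclease. It had 909, 1134 and 1104 normalized counts in the WT samples, against 939, 1215 and 1399 in the hnRNPL-deficient samples, and the groups overlapped. Its log2 fold change was 0.16 (limma adjusted p = 0.570, SE 0.168), and the 95% interval ran from 0.858-fold to 1.46-fold, so that a moderate change either way was not resolved. It stayed above 0 in every fit, from 0.03 to 0.32.

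The estimates for *Apex1* and *Apex2* thus had opposite signs, and that of *Apex1* passed the test. Taken within each library, which removes the scaling between libraries, the ratio of *Apex1* to *Apex2* normalized counts was 5.98, 4.40 and 4.05 in the WT samples, against 3.98, 2.98 and 2.14 in the hnRNPL-deficient samples. The groups did not overlap, with the highest hnRNPL-deficient ratio just below the lowest WT ratio. The difference was -0.69 on the log2 scale, and the exact permutation test gave p = 0.1, the smallest that 3 against 3 samples allow (adjusted p = 0.4 over the 4 ratios compared).

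**Figure D2:**
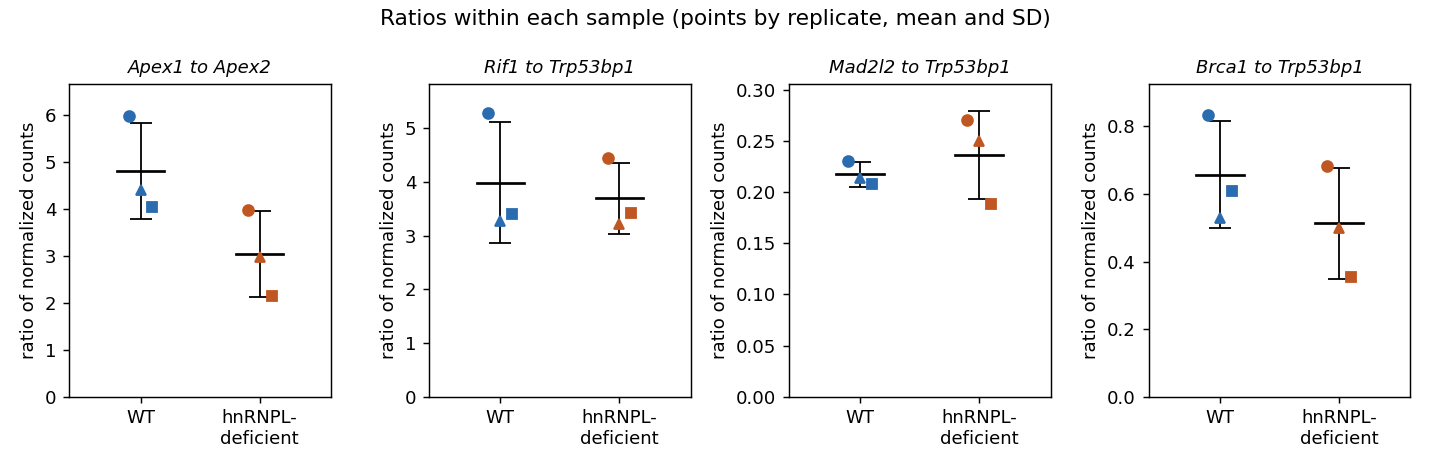
Ratios of normalized counts within each sample on linear axes from 0, with a point per sample (circle, triangle and square for replicates 1, 2 and 3), a bar at the mean and SD whiskers (n = 3). The *Apex1* to *Apex2* ratio lies at 2.14 to 3.98 in hnRNPL-deficient and 4.05 to 5.98 in WT samples, and the groups overlap in the other 3 ratios.

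*Trp53bp1* (ENSMUSG00000043909.16, chromosome 2, 121193281 to 121271407, minus strand) encodes 53BP1, the chromatin reader that protects broken ends. It had 3589, 4411 and 4020.2 normalized counts in the WT samples, against 3096, 3781 and 3898 in the hnRNPL-deficient samples. The groups overlapped, with the lowest WT sample below 2 of the hnRNPL-deficient samples. Here the log2 fold change was -0.16 (limma adjusted p = 0.448, SE 0.125), with a 95% interval from 0.734-fold to 1.09-fold.

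*Rif1* (ENSMUSG00000036202.16, chromosome 2, 52072832 to 52122383, plus strand) encodes the effector that 53BP1 recruits once ATM has phosphorylated it. It had 18948, 14422 and 13710.2 normalized counts in the WT samples, against 13756, 12166 and 13335 in the hnRNPL-deficient samples. WT replicate 1 stood above all the others, and the groups overlapped by a narrow margin. The log2 fold change was -0.25 (limma adjusted p = 0.271, SE 0.134), with a 95% interval from 0.681-fold to 1.04-fold, and it was -0.11 without WT replicate 1. The ratio of *Rif1* to *Trp53bp1* was 5.28, 3.27 and 3.41 in the WT samples, against 4.44, 3.22 and 3.42 in the hnRNPL-deficient samples (exact permutation test p = 0.7, adjusted p = 0.7), and replicate 1 of each group had the high value.

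*Mad2l2* (ENSMUSG00000029003.11, chromosome 4, 148130384 to 148145699, plus strand) encodes REV7, a subunit both of the shieldin complex and of DNA polymerase zeta. It had 829, 942 and 837 normalized counts in the WT samples, against 838, 945 and 735 in the hnRNPL-deficient samples, spanning nearly the same range. The log2 fold change was -0.06 (limma adjusted p = 0.823, SE 0.136), with a 95% interval from 0.777-fold to 1.19-fold. Its start overlaps *Draxin* on the other strand, which had at most 1.01 normalized counts in any sample. The ratio of *Mad2l2* to *Trp53bp1* was 0.231, 0.214 and 0.208 in the WT samples, against 0.271, 0.250 and 0.188 in the hnRNPL-deficient samples (exact permutation test p = 0.6, adjusted p = 0.7).

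*Paxip1* (ENSMUSG00000002221.11, chromosome 5, 27740080 to 27791691, minus strand) encodes PTIP. It had 5897, 5631 and 5778 normalized counts in the WT samples, against 4960.3, 4992 and 4814 in the hnRNPL-deficient samples. The groups did not overlap and were the tightest among the members, with coefficients of variation of 2.30% for WT and 1.93% for hnRNPL-deficient samples. The hnRNPL-deficient level was 85.3% of WT, and the log2 fold change of -0.23 (SE 0.0843, 95% interval -0.42 to -0.04) had an unadjusted p of 0.0249 and an adjusted p of 0.121 from limma, so it did not pass.

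**Figure D3:**
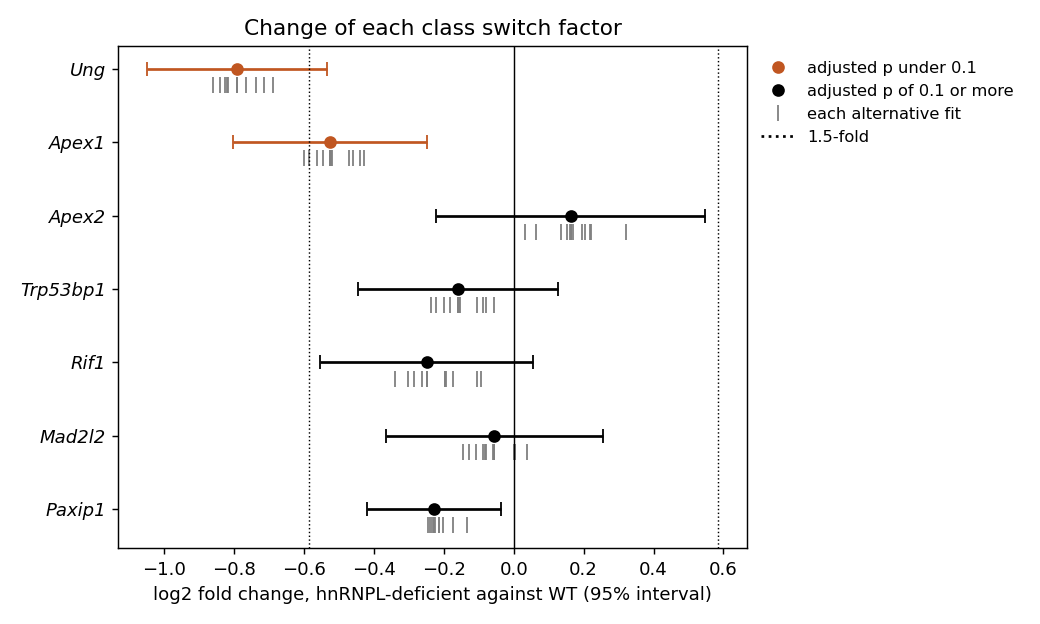
Log2 fold change of each member in hnRNPL-deficient against WT cells, with the 95% interval from limma (3 samples per group), the estimates of the alternative fits as ticks below it and 1.5-fold as dotted lines. The intervals of *Ung*, *Apex1* and *Paxip1* exclude 0, and orange marks the 2 that passed after adjustment.

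Levels were also divided by exon length, taken as all annotated exons of a gene joined. That length can exceed that of any single transcript, which lowers the value, and it was 8744 bases for *Apex2* against 1422 for *Apex1*. By this measure *Apex1* ranked highest of the members in WT cells, at 3491 ± 339 normalized counts per kilobase (SD, n = 3), above 94.1% of tested genes. *Rif1* followed at 1494 ± 270.5, *Ung* at 835 ± 28.7, *Paxip1* at 562 ± 12.9, *Mad2l2* at 332 ± 24.2, *Trp53bp1* at 283 ± 29.0 and *Apex2* at 119.9 ± 14.0, which was above 41.0% of tested genes. In WT no neighbours in this order overlapped in their sample values. The order was the same in hnRNPL-deficient cells, but *Ung*, at 484 ± 58.9 normalized counts per kilobase, then overlapped *Paxip1*, at 479 ± 9.25. Normalized counts of *Apex1* thus exceeded those of *Apex2* in both groups, with or without division by length. The order of the members depends on the annotated lengths and was not tested as an order of transcript numbers.

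The genes of the pathway around the members were taken as 8 lists of 73 genes, of which 72 were tested. Of these, 12 passed as lower and 4 as higher, against 7.97% and 10.0% of all tested genes. Called were 6 as lower and 1 as higher, against 4.08% and 7.28%. Their median log2 fold change was -0.07.

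Among 12 other genes of uracil and abasic site repair, 1 passed as lower and 2 as higher, with a median of 0.11. *Mbd4*, a glycosylase for uracil and thymine in mismatches, was the 1 called, with 1607, 1331 and 1377 normalized counts in the WT samples, against 2388, 2033 and 2130.0 in the hnRNPL-deficient samples. The groups did not overlap, and the log2 fold change was 0.60 (limma adjusted p = 0.0160, SE 0.119). It passed but was under 1.5-fold without WT replicate 2 (0.55), WT replicate 3 (0.57) or hnRNPL-deficient replicate 1 (0.54). Both genes that passed as higher encode glycosylases able to remove uracil, the other being *Smug1* (0.53, adjusted p = 0.0766), which no longer passed with 5 of the 6 samples left out in turn. *Tdg*, a thymine and uracil glycosylase, passed as lower (-0.34, adjusted p = 0.0908), and that was lost with 5 of the 6 samples left out in turn.

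Of 6 mismatch repair genes, which process the same lesions by another route, 2 passed as lower and none as higher, with a median of -0.38. *Exo1*, the exonuclease of this route, also counted under end resection, had 5026, 3541 and 3415 normalized counts in the WT samples, against 2651, 2196 and 1893 in the hnRNPL-deficient samples. It fell without overlap, with a log2 fold change of -0.82 (limma adjusted p = 0.0225, SE 0.178), and was called in every fit. *Msh6*, a subunit of the mismatch sensor, fell by 0.53 on the log2 scale (adjusted p = 0.0390 from limma), and stood at -0.52 but did not pass without WT replicate 2 (adjusted p = 0.109).

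Of 8 genes that signal breaks upstream of 53BP1, 3 passed as lower and none as higher, with a median of -0.35. *Rad50*, of the MRN complex that senses broken ends, had 5116, 4819 and 4565 normalized counts in the WT samples, against 2862, 2779 and 2348 in the hnRNPL-deficient samples. The groups did not overlap, and the log2 fold change stood close to that of *Ung*, at -0.86 (limma adjusted p = 0.00265, SE 0.109). *Atm*, the kinase that phosphorylates 53BP1, had 24897, 20544 and 19850 in the WT samples, against 13923, 13547 and 14234 in the hnRNPL-deficient samples, again without overlap. Its log2 fold change was -0.64 (limma adjusted p = 0.00880, SE 0.109), and it passed but stayed under 1.5-fold without WT replicate 1 (-0.54), with equal totals (-0.58) and with quantile normalization (-0.49). *Nbn*, also of MRN, fell by 0.46 on the log2 scale (adjusted p = 0.0359 from limma), and stood at -0.44 but did not pass without WT replicate 2 (adjusted p = 0.122). The other MRN gene, *Mre11a*, had a log2 fold change of -0.26 (adjusted p = 0.105).

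Among 12 partners of 53BP1, RIF1 and REV7, 2 passed in each direction and the median was 0.01. *Trip13* encodes an ATPase that opens REV7 and releases it from its complexes. It had 3195, 2259 and 2025 normalized counts in the WT samples, against 656, 512 and 400.2 in the hnRNPL-deficient samples, the largest change among the 72 tested pathway genes. The log2 fold change was -2.25 (limma adjusted p = 0.000887, SE 0.220), at -2.43 to -2.06 with each sample left out, while *Mad2l2* itself did not pass. *Ten1*, of the CST complex that fills in resected ends with polymerase alpha, was also called (637, 796 and 748 in WT against 438, 497 and 359 in hnRNPL-deficient cells), at -0.76 (limma adjusted p = 0.0231, SE 0.165).

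The shieldin subunit *Shld2* passed as higher. It had 995, 942 and 948 normalized counts in the WT samples, against 1388, 1401 and 1431 in the hnRNPL-deficient samples, without overlap, and its log2 fold change of 0.55 (limma adjusted p = 0.0127, SE 0.102) was just under 1.5-fold. It was called with equal totals (0.60) and by edgeR (0.59). The other shieldin genes did not pass, with log2 fold changes of 0.51 for *Shld1* (limma adjusted p = 0.228), 0.43 for *Shld3* (adjusted p = 0.133) and -0.06 for *Mad2l2* (adjusted p = 0.823). *Ctc1*, of CST, passed as higher (0.35, adjusted p = 0.0780), and this was lost with 5 of the 6 samples left out in turn. Thus 2 subunits of CST passed in opposite directions.

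Of 6 genes of end resection, which 53BP1 opposes, 3 passed as lower and none as higher, with a median of -0.47. Besides *Exo1*, *Bard1*, the partner of BRCA1, was called, with 4316, 2526 and 2519 normalized counts in the WT samples, against 2144, 1691 and 1472 in the hnRNPL-deficient samples. WT replicate 1 stood far above the others, and the log2 fold change of -0.79 (limma adjusted p = 0.0585, SE 0.226) was -0.53 without it, under 1.5-fold, and did not pass without hnRNPL-deficient replicate 2 (adjusted p = 0.126) or 3 (adjusted p = 0.157) or by edgeR (adjusted p = 0.129). *Brca1* passed as lower (-0.54, adjusted p = 0.0811), although this held with 1 of 6 samples left out, hnRNPL-deficient replicate 1. Its ratio to *Trp53bp1* was 0.834, 0.528 and 0.608 in the WT samples, against 0.684, 0.50 and 0.354 in the hnRNPL-deficient samples, and the groups overlapped (exact permutation test p = 0.4, adjusted p = 0.7).

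Of 8 end joining genes 1 passed as lower and none was called by limma, edgeR or DESeq2, with a median of -0.13. It was *Xrcc5*, which encodes the Ku80 subunit that binds broken ends (-0.32, adjusted p = 0.0837 from limma), and it did not pass when any of the 6 samples was left out. The gene with the largest estimate was *Nhej1*, which encodes the scaffold XLF, at 44.2 ± 2.16 normalized counts in WT samples and 32.8 ± 14.8 in hnRNPL-deficient samples, and it did not pass (-0.52, adjusted p = 0.403 from limma). None of the 8 tested genes of the PTIP methyltransferase complex passed by limma, edgeR or DESeq2, 1 had an unadjusted p under 0.05, and the median was 0.01. That gene was the methyltransferase *Kmt2c* (0.31, adjusted p = 0.124). *Pagr1a*, the ninth gene, was at 0 in 5 of 6 samples and was not tested. Among 13 cofactors of AID, which tether it to transcribed or single-stranded DNA or regulate it, 1 passed as lower, *Rpa2*, with a median of -0.05. *Rpa2*, a subunit of the single-strand binding protein RPA, was at 2361 ± 146 normalized counts in WT samples and 1620.0 ± 353 in hnRNPL-deficient samples (-0.57, adjusted p = 0.0619 from limma), and it did not pass when any of the WT samples was left out. It was called without hnRNPL-deficient replicate 1 (-0.69, adjusted p = 0.0597) or 2 (-0.64, adjusted p = 0.0838) and by DESeq2 (-0.59, adjusted p = 0.0404).

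**Figure D4:**
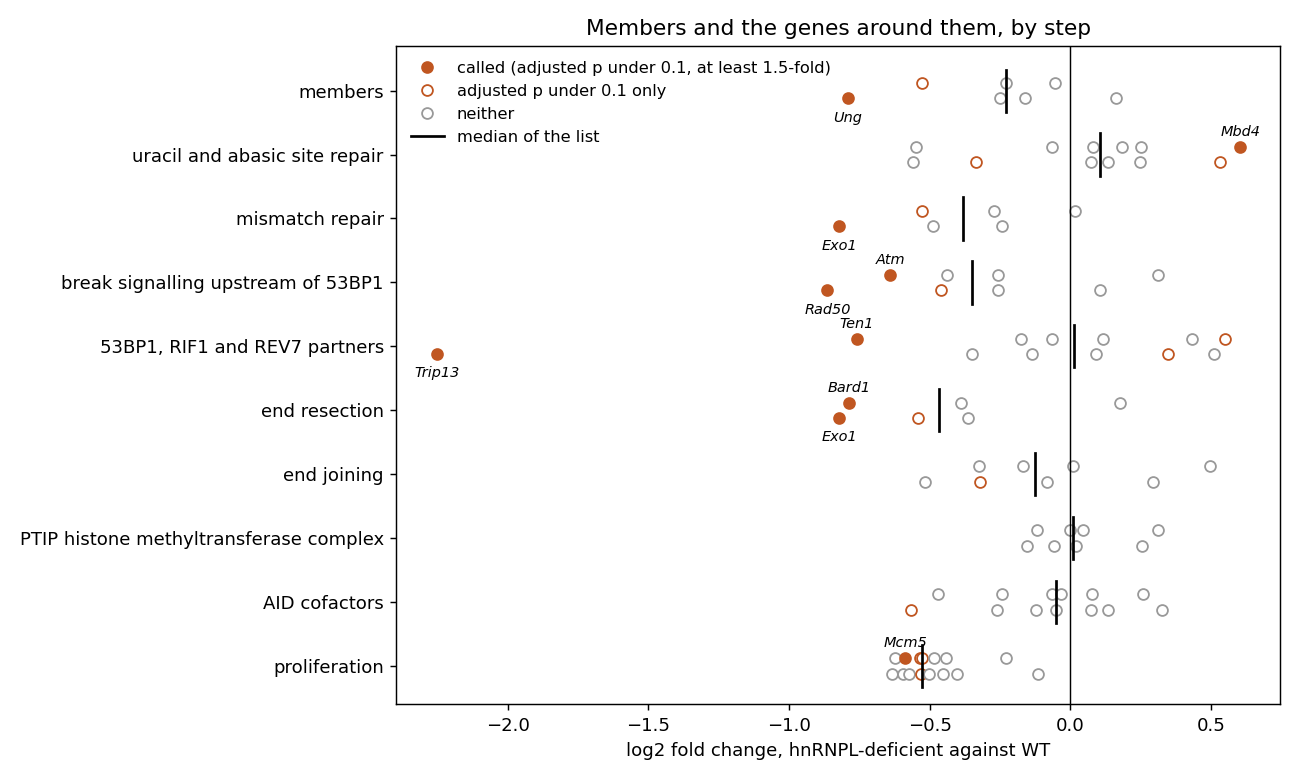
Log2 fold changes in hnRNPL-deficient against WT cells of the members and of 9 gene lists, with a point per tested gene (filled orange for called, open orange for adjusted p under 0.1 only, grey for neither) and a black bar at the list median. *Trip13* lies farthest from 0 at -2.25, and all 15 proliferation genes lie below 0 with a median of -0.53.

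The 15 proliferation genes, followed because many repair genes are made in dividing cells, had log2 fold changes below 0 throughout, with a median of -0.53. Of these, 4 passed as lower and 1 was called, *Mcm5*, a subunit of the replicative helicase, at -0.59 (limma adjusted p = 0.0306, SE 0.138), which was under 1.5-fold without WT replicate 1 (-0.51) or hnRNPL-deficient replicate 3 (-0.45), with equal totals (-0.53) and with quantile normalization (-0.45). The others that passed were *Mcm3*, *Mcm6* and *Mcm7* of the same helicase, which passed in 2, 1 and 3 of the 6 fits with a sample left out. Without WT replicate 1 none of these 3 passed (adjusted p = 0.142, 0.160 and 0.180). Beside that median stand the log2 fold changes of -0.53 for *Apex1* and -0.79 for *Ung*, and the part of proliferation in either was not tested.

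Among the pathway genes and the other members, 78 candidates in all, the patterns over the 6 samples most like each member were described by Pearson correlation of log2(normalized count + 1). The samples share libraries and scaling, and the 2 genotypes alone can set such values. *Ung* was most like *Rad50* (r = 0.991) and *Trip13* (r = 0.972), and *Paxip1* was most like the same genes (r = 0.986 and 0.985). *Apex1* was most like *Msh6* (r = 0.985) and *Nbn* (r = 0.984), and *Rif1* was most like *Cbx3* (r = 0.942) and *Blm* (r = 0.918). The members that overlapped between groups paired with genes that also did not pass. *Apex2* was most like *Dclre1c* (r = 0.926) and *Ptbp2* (r = 0.920), and *Mad2l2* was most like *Ctnnbl1* (r = 0.964) and *Mcm3ap* (r = 0.963). *Trp53bp1* had no close match, its highest values being 0.733 with *Kmt2d* and 0.702 with *Rev1*.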

How the data were processed

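RNA-seq of GFP+ splenic B cells (3 WT and 3 hnRNPL-deficient samples, grouped by the labels) was analysed. By the submitters' processing notes and the study's methods, the authors trimmed reads with fastp 0.23.1, aligned them to mm10 with STAR 2.7.9a, counted them per gene by strand with featureCounts, and divided the counts by DESeq2 1.38.2 size factors. The signal in the deposited table, such normalized counts per gene and sample, was used. The table's columns of fold changes, standard errors, statistics, p-values and adjusted p-values were not used.

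Normalized counts were analysed as log2(value + 1) with limma 3.58.1 and a mean-variance trend in R 4.3.3. Adding 1 understates changes of low genes. All values in each library were whole multiples of the smallest, so reads could be recovered. edgeR 4.0.16 (quasi-likelihood, TMM) and DESeq2 1.42.0 were run on the recovered counts of 5 libraries; hnRNPL-deficient library 2, whose step is close to 1, was left out. The tests were tried on simulated data. Replicates within a group differed by more than sampling noise. The study's text gives 3 mice per group for this RNA-seq, while the labels name no animals or litters.

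Members, gene lists and tests were chosen with earlier results of these data known. Named genes are the members, called genes of the lists (at most 4 each, otherwise that with the largest change) and the 2 most alike genes per member. *Smug1*, *Tdg*, *Msh6*, *Nbn*, *Mre11a*, *Shld1*, *Shld2*, *Shld3*, *Ctc1*, *Brca1*, *Xrcc5*, *Mcm3*, *Mcm6*, *Mcm7*, *Jchain*, *Prdm1*, *Adgre1*, *Csf1r*, *Itgam*, *Lyz2*, *Cd14*, *Trac*, *Cd3d*, *Hbb-bs*, *Hbb-bt*, *Hba-a1*, *Hba-a2*, *Osgep* and *Draxin* were named in addition, after their values were seen. Coordinates and exon lengths are those of a GENCODE annotation of GRCm38, where 17615 of 17640 tested genes were found by identifier (the authors counted on a newer release). Alternatives were pseudocounts of 0.5 and 5, filters, scalings, variance settings, a block for the replicate number, leaving out each sample, count tools and stricter thresholds.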

Additional observations from a re-analysis of the deposited data

How the results depend on the processing

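Of 276 alternative values for the results that answer a comparison, 257 were counted as unchanged. For a log2 fold change this meant the same direction and the same side of the adjusted p threshold. A ratio difference had only to keep its direction. A count of genes could shift somewhat and still be counted as unchanged, as with 4, 5 or 8 pathway genes called lower against 6. *Ung* was called lower in all 18 fits at the thresholds of the study. The number of members called lower, 1 as reported, ranged from 1 to 2 when each sample was left out in turn (2 without WT replicate 3 or hnRNPL-deficient replicate 1, through *Apex1*) and was 0 at an adjusted p under 0.05 with a 2-fold change. The number of pathway genes called lower, 6 as reported, ranged from 4 to 11 with a sample left out and was 1 at the stricter thresholds. The number called higher, 1 as reported, ranged from 0 to 2 with a sample left out, and was 3 with equal totals, 2 with edgeR on 5 libraries and 0 at the stricter thresholds. The *Mad2l2* log2 fold change changed sign, with values from -0.14 to 0.037 when each sample was left out. The log2 difference of the *Rif1* to *Trp53bp1* ratio ranged from -0.23 to 0.13 and that of *Mad2l2* to *Trp53bp1* from -0.0019 to 0.26. The cause of these shifts was not tested. Over all genes, equal totals gave 601 lower and 1419 higher calls against 719 and 1284, and moved the median log2 fold change from -0.03 to 0.03. The replicate block gave 1018 lower and 1755 higher calls. Samples of the same replicate number correlated in their deviations from the group mean at 0.429, 0.32 and 0.066. Among samples of different numbers, WT replicate 3 and hnRNPL-deficient replicate 2 correlated at 0.305, and the others at -0.458 to 0.05. The labels state no pairing and these values do not settle whether the numbers pair the samples. The main test used no block. With the replicate block 4 members passed as lower, adding *Rif1* (-0.25, adjusted p = 0.0921 from limma) and *Paxip1* (-0.23, adjusted p = 0.0654). The number of members called lower stayed at 1. Over all tested genes the block raised lower calls from 719 to 1018. The share of all tested genes that passed as lower with the block is not given here, so these 4 are not read as a result about the members. Standard errors of the members' log2 fold changes ran from 0.0843 to 0.168, which limits the size of change that 3 samples per group resolve, and an exact permutation test of a single value cannot go below 0.1.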
